A study of Rattus norvegicus with 32 samples.

Results

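The genes described here are 10 secreted, matrix-modifying genes of the rat, namely Ctgf, Cyr61, Thbs1, Sparc, Sparcl1, Spock1, Adamts1, Adamts4, Adamts9 and Timp3. They were taken by symbol from the deposited table of 22587 genes, and all 10 were found. The list sets no threshold. The genes were chosen by their levels in these libraries, and which of the values decided is not recorded, so every comparison of adrenalectomised with sham-operated rats, and the response to ozone in sham rats, is given below as a description without a p-value. The libraries came from Wistar Kyoto rats, an inbred strain, at 13 weeks of age. Total bilateral adrenalectomy (ADREX) removes both the cortex and the medulla of the adrenal glands, and so the source of corticosterone together with that of circulating adrenaline. A sham operation leaves the glands in place. Rats of either operation breathed ozone, an oxidant gas, at 0.8 ppm, or filtered air, for 4 hours in whole-body chambers, and the hypothalamus and the brainstem were taken directly afterwards. Crossing 2 tissues, 2 operations and 2 exposures gave 8 groups of 4 mRNA-seq libraries, namely ADREX ozone, ADREX air, sham ozone and sham air in each tissue. The sources used here do not say that the 4 libraries of a group came from separate rats, so a p-value measures the spread between these libraries.

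Matricellular proteins are secreted into the extracellular matrix without building its scaffold, and they change how cells attach to it and receive growth factors. Ctgf and Cyr61 are CCN proteins whose genes are textbook targets of the YAP and TEAD transcriptional regulators. Thrombospondin-1 (Thbs1) and the hevin protein made from Sparcl1 are released by astrocytes and promote synapse formation, which Sparc opposes. The proteases Adamts1, Adamts4 and Adamts9 cut the large proteoglycans of brain matrix, among them versican and brevican, and Timp3 is a matrix-bound inhibitor of such proteases.

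Promoter sequences are shown for 4 of the genes because, after ozone, Ctgf, Thbs1 and Sparc were lower in ADREX than in sham rats while Adamts1 was higher. The RefSeq promoter table, on build GRCr8, held all 10 genes, with Ctgf listed as Ccn2 and Cyr61 as Ccn1. Each window runs from 250 bases before the start of the gene to 50 bases after it, and the 250 upstream bases are printed 5′ to 3′ on the strand of the gene. Capitals mark GGAATG, the core letters bound by TEAD factors, on either strand. The Ctgf sequence is chr1:22624615-22624864 on the minus strand, the Thbs1 sequence chr3:125510000-125510249 on the plus strand, the Sparc sequence chr10:40038817-40039066 on the minus strand and the Adamts1 sequence chr11:38427385-38427634 on the minus strand.
Ctgf: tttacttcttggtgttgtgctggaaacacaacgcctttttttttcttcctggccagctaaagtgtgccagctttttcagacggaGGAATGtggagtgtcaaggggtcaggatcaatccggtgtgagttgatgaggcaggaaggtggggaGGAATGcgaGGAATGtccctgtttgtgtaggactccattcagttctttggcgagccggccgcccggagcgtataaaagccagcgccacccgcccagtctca
Thbs1: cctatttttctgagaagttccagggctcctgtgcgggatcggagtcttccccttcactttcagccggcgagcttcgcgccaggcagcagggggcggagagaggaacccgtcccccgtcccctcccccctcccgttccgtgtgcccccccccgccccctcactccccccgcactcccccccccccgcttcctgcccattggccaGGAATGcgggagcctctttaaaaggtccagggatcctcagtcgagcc
Sparc: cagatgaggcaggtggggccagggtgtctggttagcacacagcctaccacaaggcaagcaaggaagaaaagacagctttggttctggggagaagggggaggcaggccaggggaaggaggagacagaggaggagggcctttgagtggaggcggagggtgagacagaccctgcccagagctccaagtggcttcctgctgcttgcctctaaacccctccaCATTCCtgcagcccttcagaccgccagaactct
Adamts1: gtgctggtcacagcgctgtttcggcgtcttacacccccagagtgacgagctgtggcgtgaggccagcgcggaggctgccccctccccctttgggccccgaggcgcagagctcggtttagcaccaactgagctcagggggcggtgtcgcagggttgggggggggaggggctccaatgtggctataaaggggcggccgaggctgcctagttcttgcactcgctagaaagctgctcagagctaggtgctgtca

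GGAATG occurred in the 300-base windows of 5 of the 10 genes, namely Ctgf, Cyr61, Thbs1, Sparc and Spock1, against 14.2% of all 33469 promoter windows in the table. Ctgf held 3 copies on its own strand, beginning 166, 101 and 92 bases before the start, and the other 4 genes held 1 copy each. In Thbs1 the copy began 47 bases before the start, and in Sparc it lay on the opposite strand at 33 bases. Of the genes not printed, Timp3 was also lower and Adamts4 also higher in ADREX than sham brainstem after ozone, and neither held GGAATG. Spock1 and Cyr61 held it. Their log2 changes of ADREX against sham after ozone were -0.17 and 0.04 in hypothalamus. In brainstem Spock1 was at -0.10, and Cyr61 was too low to be fitted. None of the 10 windows held AGAACA, an arm of the sequence that the glucocorticoid receptor recognises, which was present in 20.7% of all windows. The AP-1 letters TGANTCA were found in Spock1 alone, against 7.33% of windows, and the CArG box of serum response factor in none of the 10, against 1.64%. Both strands were searched, and none of these motifs contains another. A match is a description of these letters and not evidence of binding.

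Libraries held 6.44 to 12.4 M reads and detected 17570 to 18584 genes. The tissue labels matched their markers: all 8 testable hypothalamic markers were higher in hypothalamus and all 7 testable brainstem markers were lower there. As a check of the operation, the glucocorticoid-induced gene Fkbp5 averaged 219 ± 9.79 normalized read counts in ADREX ozone hypothalamus and 1162 ± 173 in sham ozone hypothalamus, and 208 ± 30.3 and 1308 ± 113 in brainstem (SD, n = 4 each). After air Fkbp5 averaged 225 ± 25.2 in ADREX and 250 ± 62.2 in sham hypothalamus, and 225 ± 32.9 and 264 ± 33.9 in brainstem. The air groups overlapped in both tissues, so this check separates the operations after ozone only. Transcripts made by liver, such as albumin, exceeded 2000 reads per M reads in 4 libraries: hypothalamus ADREX air 68, hypothalamus sham ozone 18, hypothalamus sham air 2 and brainstem sham ozone 18. The called changes of the 10 genes within a tissue are also given without these libraries. Of the liver transcripts counted, Ttr is also on the list of choroid plexus markers, and its share was not separated.

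After ozone, several of the 10 genes stood apart between ADREX and sham rats. A gene counts as called at a limma adjusted p under 0.05 over all genes with a mean of 10 or more, which left out Cyr61 in brainstem and in the tissue comparison. In hypothalamus after ozone 4 of 10 genes were called, Adamts1 higher and Ctgf, Sparc and Thbs1 lower in ADREX rats, against 2.24% of the 14483 genes tested. In brainstem 5 of 9 were called, Adamts1 and Adamts4 higher and Ctgf, Sparc and Timp3 lower in ADREX rats, against 2.44% of 14408 genes. The ADREX and sham libraries did not overlap for 5 of 10 genes in hypothalamus (6.64% of all genes) and 6 of 9 in brainstem (7.29%).

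The remaining comparisons held fewer calls. After air, ADREX against sham gave 1 called gene of 10 in hypothalamus, Sparc, against 0.0138% of genes, and 0 of 9 in brainstem, where no gene of the table was called by limma or edgeR, 2 of the 9 had an unadjusted p under 0.05 and DESeq2 called none of the 9. Groups did not overlap for 1 of 10 genes in hypothalamus (5.11%) and 2 of 9 in brainstem (3.3%). In sham rats, ozone against air gave 1 called gene in each tissue, Adamts4 of 10 in hypothalamus (1.59% of genes) and Adamts1 of 9 in brainstem (0.979%), both lower after ozone. Groups did not overlap for 3 of 10 genes in hypothalamus (9.62%) and 3 of 9 in brainstem (7.18%). Since the members were listed with these comparisons known, their counts are not read against those shares.

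Ctgf, the connective tissue growth factor, showed the widest difference of the 10. In ADREX hypothalamus its normalized read count was 20.7, 26.1, 22.5 and 17.6 after ozone, against 27.5, 41.1, 67.8 and 27.2 after air. In sham hypothalamus it was 124, 93.2, 164 and 179.8 after ozone, against 95.1, 56.5, 51.7 and 55.3 after air. All 4 ADREX ozone libraries lay below every library of the other 3 groups, and the ranges of sham ozone and sham air met at library 18, the lowest of sham ozone, and library 1, the highest of sham air. After ozone the level was 6.09-fold lower in ADREX than in sham rats, a log2 change of -2.61 ± 0.28 (SE), and -2.79 without the liver-rich libraries, called in both fits. In sham rats ozone against air gave 1.11 ± 0.28, and after air ADREX against sham gave -0.70 ± 0.28, and neither was called. The change with ozone in sham rats was called when sham air library 1, sham ozone library 18 or ADREX air library 67 was left out, and by DESeq2.

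The brainstem held the same order of Ctgf group means, with sham ozone highest, then sham air, ADREX air and ADREX ozone. In ADREX brainstem its normalized read count was 18.1, 42.5, 35.9 and 40.4 after ozone, against 35.3, 33.1, 68.2 and 31.4 after air. In sham brainstem it was 149, 92.1, 175 and 168 after ozone, against 73.2, 67.7, 59.1 and 64.0 after air. The 2 ADREX groups overlapped each other, ADREX air overlapped sham air through library 67, and sham ozone stood above all other libraries. After ozone the ADREX level was 4.26-fold lower, a log2 change of -2.09 ± 0.28, and -2.30 without library 18, called in both fits. Ozone against air in sham rats gave 1.10 ± 0.28, not called, and 1.30 without library 18, when it was called. It was also called without ADREX air library 67 or ADREX ozone library 81, and by DESeq2. Library 18, rich in liver transcripts in both tissues, was the lowest of its group for Ctgf in each.

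**Figure D1:**
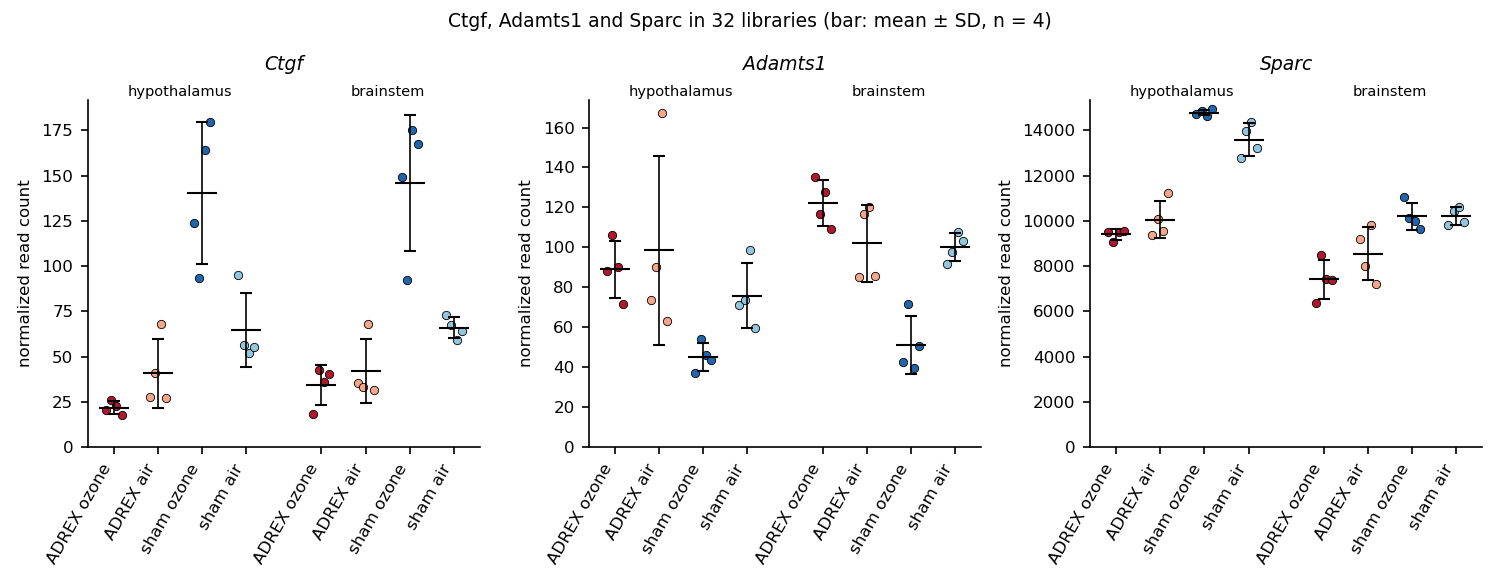
Normalized read counts (vertical axis, linear from 0) of Ctgf, Adamts1 and Sparc in each of the 32 libraries, by tissue and group, with the group mean and SD (n = 4). Ctgf was highest and Adamts1 lowest in the sham ozone groups of both tissues, and Sparc in hypothalamus averaged 9398 in ADREX ozone and 14791 in sham ozone libraries.

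Cyr61, the other CCN gene of the list, was too low to follow. It ranged from 4.46 to 25.5 normalized read counts in hypothalamus and from 1.08 to 28.0 in brainstem, which is 1 to 27 reads per library. Its highest and lowest libraries in brainstem both belonged to the sham air group. In hypothalamus ADREX against sham after ozone gave a log2 change of 0.04 ± 0.48 and ozone against air in sham rats 0.34 ± 0.48, with 95% intervals of -0.97 to 1.04 and -0.67 to 1.35. These intervals are wide, so neither a rise nor a fall of Cyr61 within them is excluded by these libraries.

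Thbs1, which encodes thrombospondin-1, was lower in ADREX than in sham rats after ozone in both tissues. In ADREX hypothalamus the normalized read count was 29.1, 47.6, 33.8 and 31.7 after ozone, against 52.0, 39.1, 37.7 and 34.8 after air. In sham hypothalamus it was 73.8, 48.1, 60.6 and 66.01 after ozone, against 52.9, 43.1, 48.0 and 55.3 after air. The ozone groups did not overlap, but the gap between the highest ADREX library and the lowest sham library was narrow. The log2 change of ADREX against sham after ozone was -0.80 ± 0.18, and -0.91 without the liver-rich libraries, and was called in both fits. The call was lost in 6 of the 16 fits that left out a library, namely ADREX ozone library 81, 83 or 84 or sham ozone library 17, 19 or 20.

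In brainstem Thbs1 was scarce, with 5 to 53 reads per library. Its normalized read counts in ADREX brainstem were 14.9, 5.90, 14.9 and 12.7 after ozone, against 10.2, 21.5, 17.04 and 20.6 after air. In sham brainstem they were 33.8, 22.5, 48.2 and 29.5 after ozone, against 12.9, 18.7, 27.0 and 50.7 after air. All ADREX ozone libraries lay below all sham ozone libraries, while the sham air group spread over most of the range. The log2 change of ADREX against sham after ozone was -1.42 ± 0.39, larger than in hypothalamus with a wider error. It was not called by limma except when sham air library 4 was left out, and it was called by DESeq2.

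Sparc, the namesake of its family, was lower in ADREX than in sham rats after either exposure. In ADREX hypothalamus its normalized read count was 9497, 9044, 9503 and 9550.0 after ozone, against 9364, 10072, 9562 and 11232 after air. In sham hypothalamus it was 14742, 14854, 14636 and 14930.3 after ozone, against 12781, 13985, 14378 and 13235 after air. All 8 ADREX libraries lay below all 8 sham libraries. Within the sham rats the ozone libraries lay above the air libraries without overlap, and within the ADREX rats the exposures overlapped. The level was 1.57-fold lower in ADREX rats after ozone, a log2 change of -0.65 ± 0.06 that was -0.65 and still called without the liver-rich libraries, and 1.35-fold lower after air, -0.44 ± 0.06. The call after air was lost when any of 12 of the 16 hypothalamus libraries was left out, and without the liver-rich libraries, although the change was then -0.48.

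Sparc in brainstem differed in the same direction by less. In ADREX brainstem its normalized read count was 6369, 8489.6, 7427 and 7400.3 after ozone, against 9181, 8019.8, 9798 and 7186 after air. In sham brainstem it was 11056, 10106, 9973 and 9656 after ozone, against 9831, 10449.9, 10628 and 9965 after air. The ADREX groups again lay below the sham groups of the same exposure without overlap, and the 2 sham groups had nearly equal means. The log2 change of ADREX against sham was -0.46 ± 0.11 after ozone, which was called, and -0.27 ± 0.11 after air, which was not. The called change was not called in 6 of the 16 fits that each left out 1 library, including every fit without a sham ozone library. Without library 18 it was -0.47.

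The relatives of Sparc on the list did not follow it. Sparcl1, which encodes hevin, averaged 20308 ± 843 in ADREX ozone hypothalamus and 19444 ± 2312 in sham ozone hypothalamus, a log2 change of 0.07 ± 0.09. In brainstem it averaged 29473 ± 8874 in ADREX ozone and 24639.5 ± 1039.6 in sham ozone libraries, a log2 change of 0.22 ± 0.15. The wide spread came from library 81, at 42522, which was also the lowest ADREX ozone brainstem library for Ctgf, Sparc and Timp3. Spock1, which encodes the proteoglycan testican-1, stayed between 1617 and 2345 in hypothalamus and between 2159.6 and 2698 in brainstem. Its log2 change of ADREX against sham after ozone was -0.17 ± 0.09 in hypothalamus and -0.10 ± 0.08 in brainstem, and neither gene was called in any comparison of exposures or operations.

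Adamts1, a protease of versican and other proteoglycans, ran opposite to Ctgf. In ADREX hypothalamus its normalized read count was 88.3, 106, 90.0 and 71.5 after ozone, against 73.6, 90.3, 167 and 63.0 after air. In sham hypothalamus it was 36.9, 54.0, 45.9 and 43.7 after ozone, against 71.0, 73.8, 98.8 and 59.7 after air. All 4 sham ozone libraries lay below all 12 others, and library 67 of ADREX air stood far above its group. The level after ozone was 1.95-fold higher in ADREX rats, a log2 change of 0.96 ± 0.24, and this call was lost in 12 of the 16 fits that left out a library. Without the liver-rich libraries it was 1.05 and called, and on whole reads it was called by DESeq2 but not by edgeR. Ozone against air in sham rats gave -0.73 ± 0.24, which was not called.

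In ADREX brainstem the Adamts1 count was 135, 117, 128 and 109 after ozone, against 85.3, 117, 120.4 and 85.5 after air. In sham brainstem it was 42.5, 71.8, 39.4 and 50.8 after ozone, against 91.6, 97.9, 108 and 103 after air. The sham ozone libraries again lay below all others, with library 18 the highest of the 4 in both tissues. ADREX against sham after ozone gave a log2 change of 1.28 ± 0.18, or 2.42-fold, and ozone against air in sham rats -0.99 ± 0.18, or 1.99-fold lower. Both were called in every fit that left out a library. Without library 18 they were 1.45 and -1.17. After air the ADREX and sham groups overlapped, with a log2 change of 0.01 ± 0.18.

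Adamts4, the aggrecanase that also cuts brevican, was lower after ozone in sham rats. In ADREX hypothalamus its normalized read count was 240.4, 224, 224 and 244 after ozone, against 298, 297, 289 and 271 after air. In sham hypothalamus it was 205, 193, 163 and 193 after ozone, against 302, 268, 255 and 285 after air. Ozone libraries lay below air libraries without overlap in rats of both operations. The log2 change of ozone against air was -0.56 ± 0.09 in sham rats, and -0.59 without the liver-rich libraries, called in both fits, and ADREX against sham after ozone gave 0.31 ± 0.09, which was not called.

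In ADREX brainstem Adamts4 had 698, 511, 493 and 609.7 normalized read counts after ozone, against 659, 582, 520.4 and 693 after air. In sham brainstem it had 366, 479, 331 and 329 after ozone, against 572, 565, 496 and 537 after air. The sham ozone libraries lay below every library of the other 3 groups. ADREX against sham after ozone gave a log2 change of 0.62 ± 0.14, which was called, and ozone against air in sham rats -0.54 ± 0.14, which was called only without library 18, at -0.66, without ADREX ozone library 81, and by DESeq2. The change between operations was 0.74 and called without library 18, and the call was lost without ADREX ozone library 84 or sham ozone library 17, 19 or 20. Adamts9, a versican-cutting protease, averaged 75.2 ± 20.6 in sham ozone and 106 ± 9.64 in sham air brainstem, a log2 change of -0.52 ± 0.21, and its groups overlapped. In hypothalamus the same change was -0.46 ± 0.20, and -0.20 without the liver-rich libraries, and Adamts9 was called in neither tissue.

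Timp3, the inhibitor on the list, was lower in ADREX brainstem after ozone. In ADREX brainstem its normalized read count was 249, 433, 346 and 382 after ozone, against 331, 377, 429.5 and 346 after air. In sham brainstem it was 597, 513, 521 and 558 after ozone, against 364, 438, 496 and 559 after air. The ozone groups did not overlap, and the log2 change of -0.66 ± 0.16 was called, but in 7 of the 16 fits that left out a library it was not. The fit without library 18, at -0.69, was one of those 7. In hypothalamus the ADREX ozone libraries ranged from 621 to 883 and the sham ozone libraries from 603 to 887, with a log2 change of -0.01 ± 0.15. Whether the change differs between the tissues was not tested.

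**Figure D2:**
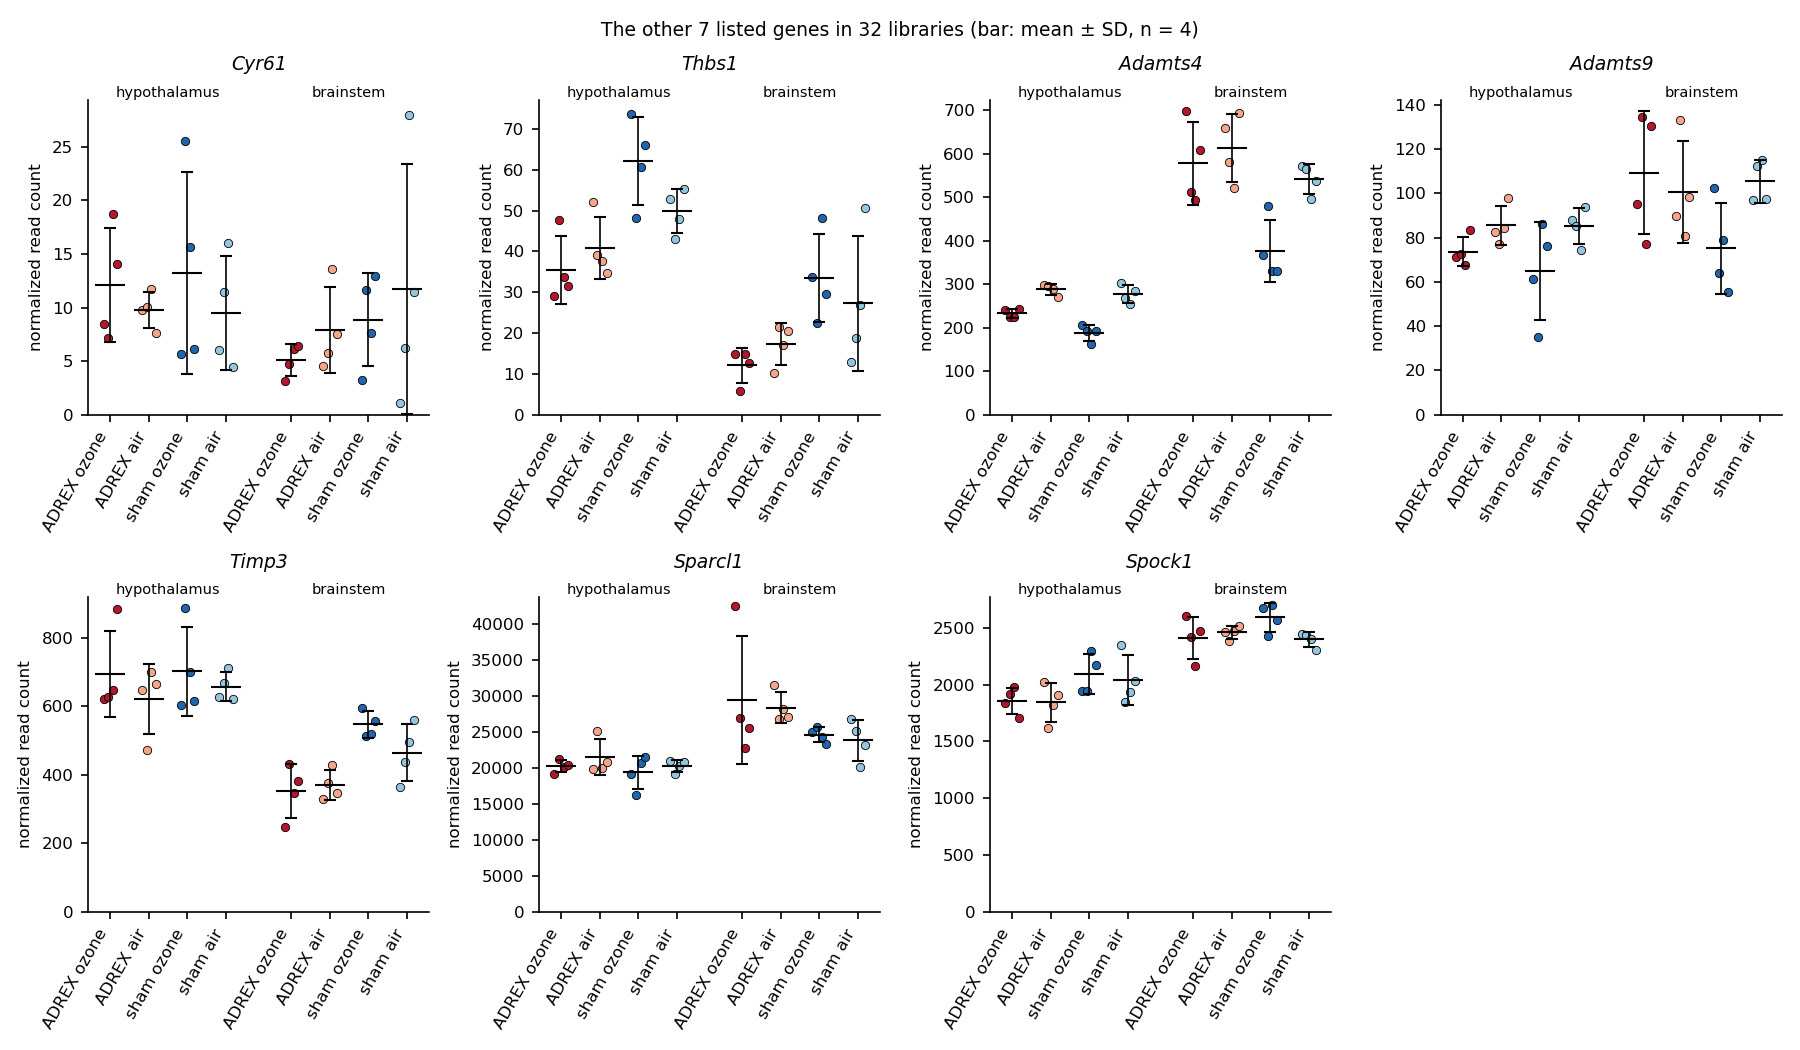
Normalized read counts (vertical axes, linear from 0) of the other 7 genes in each library, by tissue and group, with the group mean and SD (n = 4). Adamts4 was lowest in the sham ozone libraries of both tissues, Thbs1 was lowest in ADREX ozone brainstem, and Cyr61 reached at most 28.0 counts in any library.

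In rats without adrenal glands the log2 change of ozone against air came from ADREX libraries, while its SE and p-value rest on the spread over all 16 libraries of the tissue, sham libraries included. The ADREX ozone and ADREX air libraries also enter the comparisons of operations after ozone and after air, so the p-values given here are not independent of the choice of the genes. Of the 10 genes 0 of 10 in hypothalamus and 0 of 9 in brainstem passed limma's adjusted p of 0.05, beside 0% of all genes in both tissues. At an unadjusted p under 0.05 there were 2 genes in hypothalamus and 0 in brainstem. On whole reads edgeR and DESeq2 called 0 of these genes in either tissue, and over the whole table DESeq2 called 1 gene in brainstem.

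The 2 genes with a small unadjusted p were Ctgf and Adamts4, both lower after ozone in ADREX hypothalamus without overlap of their libraries, a separation shown by 3.64% of all genes. In brainstem the ADREX exposures overlapped for all 9 genes, beside 2.19% of all genes without overlap. For Ctgf the log2 change was -0.80 ± 0.28, a mean of 21.7 after ozone and 40.9 after air, with a limma p of 0.0122 and an adjusted p of 0.586. For Adamts4 it was -0.31 ± 0.09, with a limma p of 0.00289 and the same adjusted p. In brainstem the Ctgf change was -0.28 ± 0.28 (95% interval -0.88 to 0.32), with a limma adjusted p of 0.858.

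For Adamts1 the log2 change was -0.05 ± 0.24 in ADREX hypothalamus (95% interval -0.57 to 0.46, limma adjusted p = 0.944) and 0.27 ± 0.18 in ADREX brainstem (-0.10 to 0.65, limma adjusted p = 0.808). For Sparc the values were -0.09 ± 0.06 in hypothalamus, with a limma adjusted p of 0.627, and -0.20 ± 0.11 in brainstem, with a limma adjusted p of 0.801. The other genes had log2 changes from -0.21 for Adamts9 to 0.20 for Cyr61 in hypothalamus and from -0.51 for Thbs1 to 0.11 for Adamts9 in brainstem. None of these passed, which does not show that ozone left them unaltered. The difference between the ozone responses of ADREX and sham rats, the interaction, was a log2 value of 1.27 ± 0.25 for Adamts1 in brainstem, the 1 of 9 genes called there, against 0.201% of genes. That call was lost in 15 of the 16 fits that left out a library, all but the one without sham ozone library 18. For Ctgf the interaction was -1.38 ± 0.40 in brainstem and -1.90 ± 0.40 in hypothalamus, where 0 of 10 genes were called by limma, 0 by edgeR and 1 by DESeq2, 2 had an unadjusted p under 0.05, and 0.138% of genes were called. Without sham ozone library 18, or without all the liver-rich libraries, Ctgf was called in hypothalamus, at -2.19 in the fit without the liver-rich libraries.

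**Figure D3:**
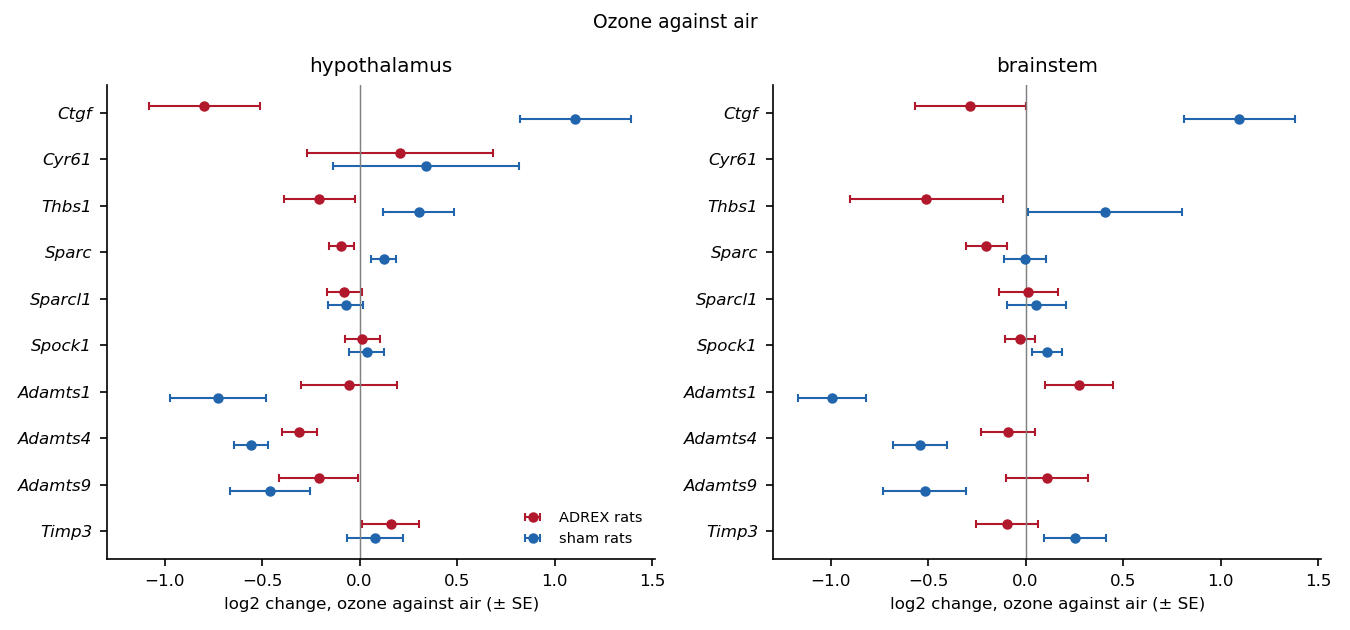
Log2 change of ozone against air (horizontal axis, points with SE) for each gene in ADREX rats (red) and sham rats (blue), by tissue; Cyr61 was not fitted in brainstem. In the hypothalamus the Ctgf points lie at -0.80 in ADREX and 1.11 in sham rats, on opposite sides of 0.

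**Figure D4:**
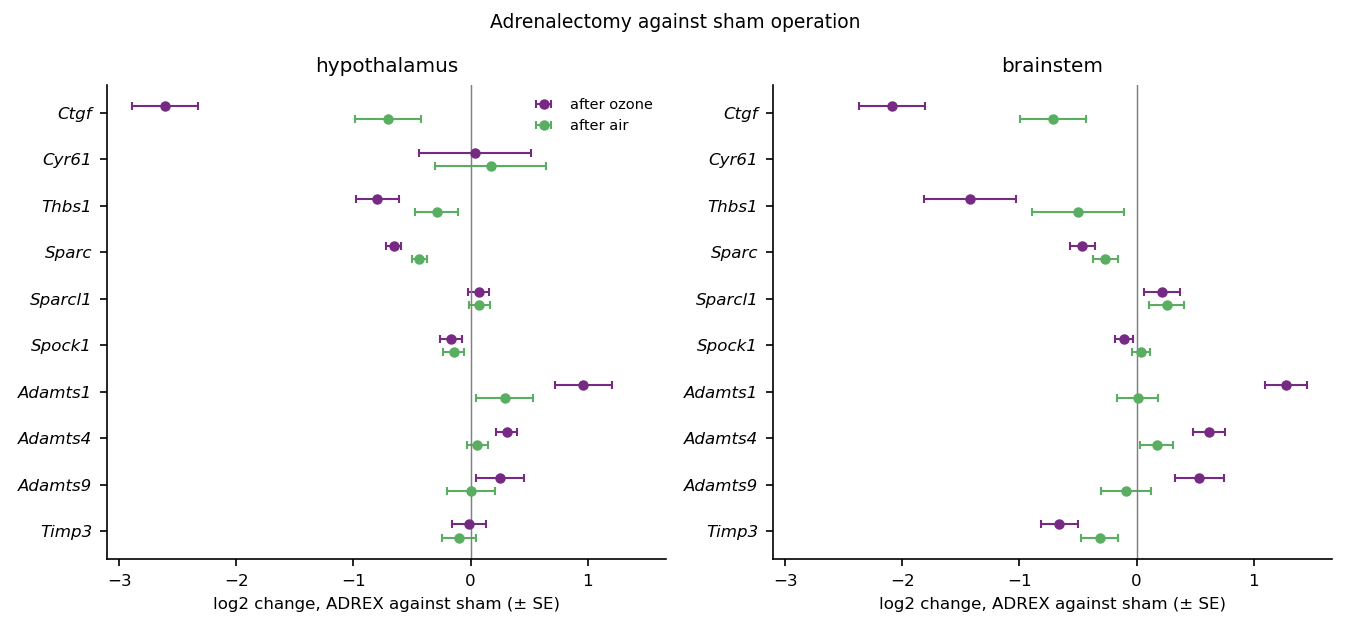
Log2 change of ADREX against sham (horizontal axis, points with SE) for each gene after ozone (purple) and after air (green), by tissue; Cyr61 was not fitted in brainstem. The Ctgf points after ozone lie at -2.61 in hypothalamus and -2.09 in brainstem, left of those after air, and Adamts1 lies right of 0 after ozone.

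Most of the genes differed between the 2 tissues on average. The tissue comparisons, here and within ADREX air, use the libraries whose levels were known when the genes were chosen. Their p-values may therefore not be independent of that choice. Over the mean of the 4 conditions, 8 of 9 genes passed, against 54% of the 14533 genes tested, so that passing alone does not set them apart. Thbs1 was 2.25-fold higher in hypothalamus than in brainstem (log2 1.17 ± 0.16, limma adjusted p = 1.84e-07), Timp3 1.56-fold higher (0.64 ± 0.08, limma adjusted p = 3.40e-08) and Sparc 1.31-fold higher (0.38 ± 0.04, limma adjusted p = 5.86e-09). Adamts4 was 2.11-fold lower in hypothalamus (log2 -1.08 ± 0.06, limma adjusted p = 4.70e-16). Its hypothalamus libraries ranged from 163 to 302 normalized read counts and its brainstem libraries from 329 to 698, with no overlap among all 32. Sparcl1 (-0.37 ± 0.06), Spock1 (-0.34 ± 0.04), Adamts9 (-0.32 ± 0.11) and Adamts1 (-0.29 ± 0.11) were also lower in hypothalamus, with limma adjusted p between 2.25e-08 and 0.0247. Adamts1 did not pass without the liver-rich libraries, at -0.23. Ctgf alone did not pass, at -0.19 ± 0.15 (95% interval -0.49 to 0.11, limma adjusted p = 0.279).

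Within ADREX air alone, 6 of 9 genes passed the same comparison, against 26.6% of genes. Thbs1 (1.23 ± 0.31), Timp3 (0.73 ± 0.16) and Sparc (0.24 ± 0.09, limma adjusted p = 0.0344) were higher in hypothalamus, and Adamts4 (-1.08 ± 0.11), Spock1 (-0.42 ± 0.08) and Sparcl1 (-0.40 ± 0.13, limma adjusted p = 0.0171) were lower. Sparc did not pass without the liver-rich libraries, nor without brainstem ADREX air library 66 or 68 or hypothalamus ADREX air library 66 or 68. Sparcl1 did not pass without brainstem library 65 or hypothalamus library 65 or 67 of the same group. Oligodendrocyte markers moved with the tissue, with a summed level of 124909 to 201316 in hypothalamus and 279852 to 466263 in brainstem. All 8 were lower in hypothalamus and none was at 0 in every library. Astrocyte markers summed to 39508 to 47841 in hypothalamus and 62477 to 71798 in brainstem. Over the mean of the 4 conditions 7 of 11 astrocyte markers were called lower in hypothalamus and 1 higher. So were 11 of 12 endothelial and 10 of 14 mural and fibroblast markers lower, beside 26.9% of all genes. Of 8 neuron markers 4 were called higher and 3 lower. The part of these markers in the tissue differences was not tested. In whole tissue, fewer cells of a type and less RNA per cell cannot be told apart.

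**Figure D5:**
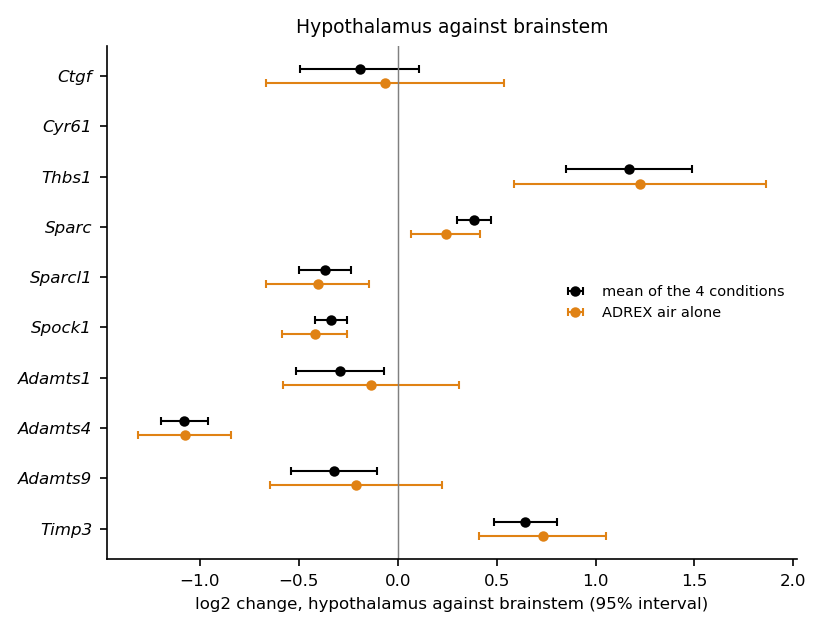
Log2 change of hypothalamus against brainstem (horizontal axis, points with 95% interval) for each gene, over the mean of the 4 conditions (black) and in ADREX air alone (orange); Cyr61 was not fitted. Thbs1, Timp3 and Sparc lie right of 0 and Adamts4 lies near -1.08 in both.

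Relatives of these genes were counted by family. Of the CCN family, 4 of 6 genes could be tested in hypothalamus and 3 in brainstem. Ctgf alone was called by limma for ADREX against sham after ozone. At an unadjusted p under 0.05 there was 1 gene in hypothalamus and 3 in brainstem, where all 3 were lower in ADREX rats. The median log2 change over the family was -0.24 in hypothalamus and -0.86 in brainstem. Over all genes the medians were 0.0054 in hypothalamus and -0.0045 in brainstem. The family medians rest on few genes and include Ctgf, which was chosen with this comparison known. In the SPARC family 7 of 8 were tested, and Fstl1, a follistatin-like glycoprotein, was called lower in ADREX hypothalamus after ozone (log2 -0.47 ± 0.10) along with Sparc. Among ADAMTS proteases, 16 of 19 were tested in hypothalamus, where Adamts14, a procollagen-processing enzyme, was called higher in ADREX rats after ozone (1.62 ± 0.38), with Adamts1. In brainstem 14 were tested and Adamts20 was called higher (0.92 ± 0.23), with Adamts1 and Adamts4. In that comparison 4 ADAMTS genes in hypothalamus and 6 in brainstem had an unadjusted p under 0.05. Adamts14 averaged 15.5 normalized read counts in ADREX ozone and 4.77 in sham ozone hypothalamus, close to the limit for testing. For ADREX against sham after ozone, 1.04% of all genes were called higher and 1.20% lower in hypothalamus, and 1.19% and 1.25% in brainstem. Family counts here and in the next paragraph include listed members chosen with this comparison known, so they are not read against those shares.

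Among TIMPs and matrix metalloproteinases, Mmp15, a membrane-bound metalloproteinase, was called higher in ADREX than sham rats after ozone in hypothalamus (0.48 ± 0.10) and brainstem (0.55 ± 0.09). In sham brainstem it was called lower after ozone (-0.46 ± 0.09), beside 0.396% of all genes. For ADREX against sham after ozone, 1 of 13 tested genes of this list in hypothalamus and 5 of 12 in brainstem had an unadjusted p under 0.05. Of the thrombospondins and tenascins, 1 of 7 was called after ozone in ADREX against sham hypothalamus, Thbs1 itself, and 0 of 7 by limma in brainstem, where 4 had an unadjusted p under 0.05. Of the 8 lecticans and link proteins, the substrates and partners of these proteases, 0 were called by limma in that comparison and 1 had an unadjusted p under 0.05 in each tissue. Of 18 tested further target genes of YAP/TEAD and serum response factor, Fstl1 in hypothalamus was the 1 called after ozone in ADREX against sham, and in brainstem 0 were called by limma and 3 had an unadjusted p under 0.05. In ADREX rats limma called 0 genes of any of these 7 lists for ozone against air in either tissue, with 0 to 3 genes of a list at an unadjusted p under 0.05.

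Between tissues 27.1% of all genes were called higher and 26.9% lower in hypothalamus. All 8 lecticans and link proteins were lower in hypothalamus, with a median log2 change of -1.17, Acan (aggrecan) at -1.85 ± 0.06 and Hapln1 at -2.63 ± 0.09, beside a median of -0.01 over all genes. Of 15 ADAMTS genes tested 2 were higher and 7 lower, with Adamts15 at 2.30 ± 0.09 and Adamts3 at -1.29 ± 0.11. Of 7 thrombospondins and tenascins 3 were higher and 3 lower, with Tnc (tenascin-C) at 2.09 ± 0.08 and Comp at -1.53 ± 0.16. In the SPARC family 2 of 7 were higher and 4 lower, with Fstl1 at -1.05 ± 0.05. Of 13 TIMPs and metalloproteinases 4 were higher and 4 lower, with Timp2 at 0.42 ± 0.05. In the CCN family Nov was higher (0.85 ± 0.15) and Wisp2 lower (-0.37 ± 0.16) of 3 tested, and of the 18 YAP/TEAD and serum response factor genes 4 were higher and 4 lower.

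Markers of blood vessel endothelium moved with Adamts1. Their summed level, over the 12 of 14 markers in the table, was 4595 to 4834 in ADREX ozone, 4470.4 to 5321 in ADREX air, 2986 to 3918 in sham ozone and 4307 to 4615 in sham air hypothalamus. In brainstem it was 6329.7 to 6845, 6211 to 7119, 4070.4 to 5142 and 5898 to 6252 in the same 4 groups. No marker was at 0 in every library of a group. After ozone 6 of 12 were called higher in ADREX than sham rats in each tissue, beside 1.04% of all genes in hypothalamus and 1.19% in brainstem, among them Kdr, a receptor for vascular endothelial growth factor, at 0.90 ± 0.16 in hypothalamus and 1.07 ± 0.18 in brainstem. In sham rats 3 of 12 were called lower after ozone in each tissue, beside 0.642% of all genes in hypothalamus and 0.396% in brainstem, with Slco1c1, a thyroid hormone transporter, at -1.05 ± 0.12 in hypothalamus and -1.04 ± 0.12 in brainstem. Their part in the Adamts1 result was not tested.

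Other marker lists held the following calls, beside 1.04% of all genes called higher and 1.20% called lower for ADREX against sham after ozone in hypothalamus, and 1.19% and 1.25% in brainstem. Of 14 mural and fibroblast markers 0 were called by limma for ADREX against sham after ozone in either tissue, and 2 in each had an unadjusted p under 0.05. Of 11 astrocyte markers 1 was called higher and 1 lower in each tissue, Gjb6, a connexin, being the lower in both, and their summed level overlapped between the groups. Of 8 oligodendrocyte markers 3 in hypothalamus and 1 in brainstem were called higher. Of 9 microglia markers 0 were called in hypothalamus, where 2 had an unadjusted p under 0.05. In brainstem 1 microglia marker was called higher and 4 had an unadjusted p under 0.05. The summed microglia level in brainstem was 1933 to 2000 in ADREX ozone and 1504 to 1814 in sham ozone libraries, without overlap. In hypothalamus it overlapped, at 1666 to 2017 and 1526 to 1775. None of the 8 neuron markers, the 6 tested choroid plexus markers or the 10 liver transcripts was called by limma, and 1 neuron marker in hypothalamus had an unadjusted p under 0.05. The part of these markers in the results for Ctgf, Sparc and Adamts1 was not tested.

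Over the 16 libraries of a tissue, which span 4 groups, Ctgf and Sparc varied together, with a Pearson correlation of log2 values of 0.82 in hypothalamus and 0.80 in brainstem. Ctgf and Thbs1 gave 0.80 and 0.59, and Ctgf and Adamts1 gave -0.54 and -0.84. Ctgf with Timp3 gave -0.03 in hypothalamus and 0.86 in brainstem, and Ctgf with Adamts4 -0.46 and -0.89. Sparc and Sparcl1, whose proteins act in opposite ways on synapses, gave -0.29 in hypothalamus and -0.55 in brainstem. These values describe libraries that share groups and the differences between them, and they carry no p-value.

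The genes most like each of the 3 leading members were ranked by the mean of both within-tissue correlations among 10046 genes with a mean of 50 or more in both tissues. For Ctgf they were the lysolipid transporter Mfsd2a (0.92 in the mean), the ceramidase Acer2 (0.91) and glycerol-3-phosphate dehydrogenase Gpd1 (0.91). For Sparc they were glutamine synthetase Glul (0.90), Etnppl (0.90) and angiotensinogen Agt (0.89). For Adamts1 they were Kdr (0.84), Nipal4 (0.81) and Cyth4 (0.81). Gpd1 averaged 266 in ADREX ozone, 276 in ADREX air, 1981 in sham ozone and 511 in sham air hypothalamus, the same order at its ends as Ctgf, whose lowest mean was also that of ADREX ozone and highest that of sham ozone. Glul averaged 9973, 9473, 15606 and 13073 in the same groups, with both ADREX means below both sham means, as for Sparc.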

How the data were processed

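Gene by gene read counts, normalized by the authors, were deposited for 22587 genes in 32 libraries, which makes the unit a normalized signal. Per the submitters' processing notes, the tools named are Partek and DESeq2 and the build is rn6, with neither roles nor versions. The aligner, annotation and strand setting were not found in the labels. All columns were mapped to a library. Values of a column were whole multiples of a step of 0.623 to 1.25, and dividing by it gave whole reads for 100% of values within 0.001. Reads of a near-identical copy or of an antisense partner cannot be told apart.

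Genes with a mean of 10 or more were tested with limma 3.58.1 in R 4.3.3 on log2(value + 1), with eBayes in trend mode, and p-values were adjusted by Benjamini-Hochberg over all genes of a contrast. A call is an adjusted p under 0.05. Contrasts within a tissue used its 16 libraries, and those between tissues all 32. Fold changes on this scale understate those of low genes. On whole reads edgeR 4.0.16 called 346 genes and DESeq2 1.42.0 called 489 genes for ADREX against sham after ozone in brainstem.

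The members and lists were chosen with earlier results of these data known. ADREX against sham after air was planned as a test and is given here as a description without a p-value, a change made after its values were seen, because Sparc was called there in hypothalamus and may have been chosen for it. All 10 members are described, with the 3 genes most correlated with each of Sparc, Ctgf and Adamts1, and Fkbp5 as a check. Of a family list all called genes are named if 5 or fewer, otherwise the 5 with the smallest p, and for the tissue comparison fewer are given for length. Cell type markers came from general knowledge. Same-numbered libraries of the 2 tissues are not said to share an animal, and the labels give no technical batch. No 2 libraries were identical. As alternatives, the pseudocount was 0.5 or 5, the filter was left out or set to a mean of 50, values were rescaled by median of ratios or TMM, both count tools were run, the compared groups were fitted alone, and the libraries over 2000 liver reads per M reads, or each library in turn, were left out. Leaving out libraries outside the compared groups was added after seeing the data.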

Additional observations from a re-analysis of the deposited data

Results flagged for a closer look

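In 4 of the 80 groups examined, 1 library stood apart from its group by a wide gap, and chance gives about 1 in 20. Hypothalamus ADREX ozone library 82 was low for Sparc, at 9044 normalized read counts, while the other 3 lay between 9497 and 9550. Brainstem ADREX air library 67 was high for Ctgf, at 68.2. Hypothalamus sham air library 1 was high for Ctgf, at 95.1, above the lowest sham ozone library, at 93.2. Hypothalamus ADREX ozone library 84 was high for Timp3, at 883.

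The response of Adamts1 to ozone differed between ADREX and sham rats in brainstem, with a log2 difference of 1.27, an interaction called by limma. It was called in 1 of the 16 fits that each left out a library, the fit without sham ozone library 18, and was not called by edgeR or without a filter on low values. The members were chosen with this interaction known.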

How the results depend on the processing

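Of the 10 genes, limma called 1 for ozone against air in sham brainstem, but DESeq2 called 3, the fit without the liver-rich libraries 3, and the compared groups alone 2, with 1 to 3 when single libraries were left out. For ADREX against sham after ozone the 5 called in brainstem became 3 without the liver-rich libraries and 2 with the compared groups alone, and 2 to 6 with single libraries left out. The 4 called in hypothalamus became 3 by edgeR, which did not call Adamts1, 2 without a filter on low values, and 2 to 4 with single libraries left out. For ozone in sham hypothalamus DESeq2 called 2 against 1, and leaving out libraries gave 1 to 2. The 1 called for ADREX against sham after air in hypothalamus became 0 without a filter, without the liver-rich libraries and with the compared groups alone, and 0 to 1 with libraries left out. The brainstem interaction, 1 called, gave 0 without a filter and by edgeR, and 0 to 1 with libraries left out; the hypothalamus interaction, 0 called, gave 1 by DESeq2 and without the liver-rich libraries, and 0 to 1 with libraries left out. The cause was not tested. For ozone in ADREX rats 0 of the genes were called under any alternative. There, leaving out single libraries turned the sign of uncalled log2 changes: in brainstem Sparcl1 ranged over -0.178 to 0.122, Spock1 -0.0674 to 0.0216, Adamts9 -0.00158 to 0.263 and Timp3 -0.203 to 0.0632, and in hypothalamus Sparcl1 -0.114 to 0.00161, Spock1 -0.047 to 0.0611, Cyr61 -0.0222 to 0.401 and Adamts1 -0.232 to 0.233. Between tissues in ADREX air, Ctgf ranged over -0.336 to 0.19 and Adamts1 over -0.423 to 0.0424 with single libraries left out, and without the liver-rich libraries they were 0.0938 and 0.0424. Same-numbered libraries of the tissues did not consistently deviate together (r -0.581 to 0.597 over 16 pairs, over 0.1 in 7 of them and highest for number 18). With the number as a replicate block 8 genes were called between tissues over the 4 conditions, and 5 in ADREX air, where Sparc was no longer called; 7597 and 3521 of all genes were called. No paired analysis was possible within a tissue because the groups compared share no numbers.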
